A study of Mus musculus with 6 samples.

Results

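The MAP kinase phosphatases described here are 10 genes of the dual-specificity phosphatase family, chosen by gene name: Dusp1, Dusp2, Dusp4, Dusp5, Dusp6, Dusp7, Dusp8, Dusp10, Dusp14 and Dusp16. Each name was found once among the 46983 genes of the deposited count table, and all 10 passed the filter on low counts. Gene expression had been measured by sequencing of poly(A) RNA from C2C12 myotubes, a wild-type mouse muscle line that was differentiated in horse serum until the cells fused. The myotubes had been exposed for 24 h to corticosterone (1e-07 M), which is the glucocorticoid that rodents mainly secrete, or to ethanol vehicle at 1 µL/mL, with 3 libraries per treatment that the submitters describe as independent biological replicates of this single line. The question was which genes differ between the treatments.

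MAP kinases (ERK, JNK and p38) are switched on by phosphorylation of a threonine and a tyrosine in their activation loop, and MAP kinase phosphatases switch them off by removing both phosphates. Many of these phosphatase genes are themselves transcribed in response to MAP kinase signalling, which makes them negative feedback regulators, and Dusp1 is a well-known glucocorticoid-induced gene. In muscle, MAP kinases act in myoblast proliferation, differentiation and stress responses. The members fall into inducible nuclear enzymes (Dusp1, Dusp2, Dusp4 and the ERK-specific Dusp5), cytoplasmic ERK phosphatases (Dusp6, Dusp7), phosphatases with a preference for JNK and p38 (Dusp8, Dusp10, Dusp16) and the small atypical enzyme Dusp14, which lacks the amino-terminal docking domain of the others.

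In 2 libraries, the levels of glucocorticoid-induced genes contradicted the label; replicates are named below by their labels all the same. Fkbp5, which encodes a co-chaperone of the hormone receptor, measured 151, 36.9 and 135 CPM (counts relative to the TMM-scaled library size) in corticosterone replicates 1 to 3 and 36.9, 177 and 35.3 CPM in vehicle replicates 1 to 3. Tsc22d3, the glucocorticoid-induced leucine zipper gene, and the clock gene Per1 had the same 3 libraries highest. The phosphatases were therefore read by label, with and without both libraries numbered 2, and also by this other order, corticosterone replicates 1 and 3 with vehicle replicate 2 against the remaining 3. Because that order was set by measured levels, it is given as values and overlap, with no mean, fold or test. Total counts ran from 23877583 to 29928653 per library, and the floor of 3 counts corresponded to 0.103 to 0.125 CPM. The 8 myotube markers were all present, at a summed 13486 to 14854 CPM in the libraries labelled corticosterone and 11214 to 14237 CPM in those labelled vehicle. The 5 markers of proliferating myoblasts summed to 149 to 169 against 194 to 213 CPM, without overlap between the labels. Markers of reserve or satellite cells summed to 169 to 183 against 172 to 185 CPM, and those of fibroblasts to 22.9 to 34.0 against 20.6 to 41.3 CPM. Of the defining adipocyte and macrophage markers, 2 of 4 and 2 of 3 had no count in any library. The adipocyte marker Fabp4 had 0 to 29 reads per library and the macrophage marker Cd68 had 24 to 58.

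By label, none of the 10 phosphatase genes passed the test over all genes. Dusp2 lay higher and Dusp8 lower in every library labelled corticosterone than in any labelled vehicle, and the other 8 members overlapped. With edgeR's quasi-likelihood test 0 of 10 members and 0% of the 14450 genes tested had an adjusted p under 0.05. DESeq2, which called 0.955% of all genes, and limma-voom also called 0 members. At an unadjusted p under 0.05 there were 2 members, where 11.8% of all genes tested passed: Dusp2 among the 5.55% that lay higher and Dusp8 among the 6.26% that lay lower. The 2 members without overlap between the labels compare with 16.6% of all genes, a share near the background, with 8.41% of genes higher as Dusp2 was and 8.19% lower as Dusp8 was. Without both libraries numbered 2, 3 members did not overlap (2 higher, 1 lower), where 37.1% of all genes did not. The log2 difference was above 0 for 4 members and below 0 for 6, and its median was -0.048 beside 0.0040 over all genes tested.

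**Figure D1:**
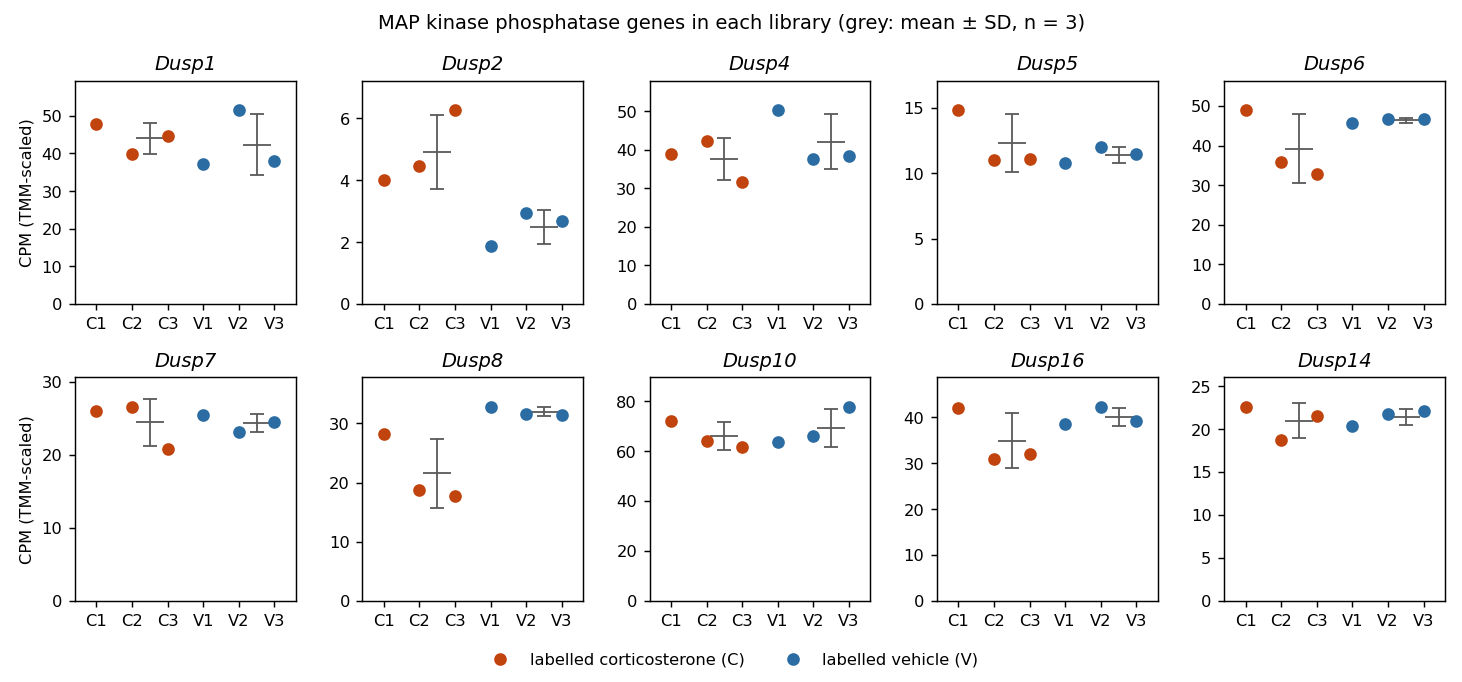
CPM of each phosphatase gene (vertical axis from 0) in each of the 6 libraries (C, labelled corticosterone; V, labelled vehicle; the digit is the replicate), with the mean and SD of each label in grey. Dusp2 and Dusp8 are the members without overlap between the labels, Dusp1 is highest in C1, C3 and V2, and Dusp6, Dusp8 and Dusp16 are lowest in C2 and C3.

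Promoters are shown for Dusp2 and Dusp8, the members without overlap between the labels, and for Dusp1, without overlap in the other order. They were chosen with these values known. Each sequence is the 250 bases before the RefSeq transcription start (GRCm38.p6), read 5′ to 3′ on the strand of the gene, with matches to the cAMP response element (TGACGTCA) or to its shorter core (TGACG, either strand) in capitals. Of the 10 members, 9 had an entry in the RefSeq promoter table. The Dusp1 window is chr17:26508473-26508722 on the minus strand, that of Dusp2 is chr2:127335909-127336158 on the plus strand and that of Dusp8 is chr7:142095285-142095534 on the minus strand. The windows of Dusp1 and Dusp8 lie within the GENCODE positions given for these genes below, so another annotated start would give another window.
Dusp1: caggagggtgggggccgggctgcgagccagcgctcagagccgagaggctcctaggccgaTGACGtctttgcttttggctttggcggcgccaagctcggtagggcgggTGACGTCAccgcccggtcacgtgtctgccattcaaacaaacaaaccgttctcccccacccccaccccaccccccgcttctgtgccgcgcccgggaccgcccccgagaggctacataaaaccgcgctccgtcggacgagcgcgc
Dusp2: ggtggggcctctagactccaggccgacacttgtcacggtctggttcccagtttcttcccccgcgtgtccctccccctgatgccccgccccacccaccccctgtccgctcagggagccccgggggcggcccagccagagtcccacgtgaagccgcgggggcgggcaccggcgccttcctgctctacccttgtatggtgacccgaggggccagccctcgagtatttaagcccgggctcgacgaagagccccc
Dusp8: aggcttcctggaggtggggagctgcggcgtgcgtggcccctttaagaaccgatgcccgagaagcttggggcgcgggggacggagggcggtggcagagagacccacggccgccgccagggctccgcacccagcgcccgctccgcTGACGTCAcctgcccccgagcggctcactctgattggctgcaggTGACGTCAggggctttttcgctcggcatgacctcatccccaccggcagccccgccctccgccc

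The full cAMP response element was found in Dusp1 (once) and Dusp8 (at 2 positions, 107 and 63 bases before the start), thus in 2 of 9 members and in 1.55% of the 32851 promoter windows of this length. The shorter core was found in 4 of 9 members (Dusp1, Dusp5, Dusp8 and Dusp16) and in 17.8% of all windows. Each full element contains the core on both strands, so the 2 counts overlap. The glucocorticoid response element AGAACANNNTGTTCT was in 0 of 9 windows and its 1-sided core AGAACA also in 0, against 0.00913% and 16.1% of all windows, each searched on both strands. The Dusp5 window held 2 CArG boxes, the element bound by serum response factor, CCATATTTGG and CCTTATATGG at 82 and 72 bases before the start, a motif found in 1 of 9 members and 1.47% of windows. The GC box GGGCGG was in 7 of 9 members and 32.7% of windows. The AP-1 site TGANTCA, the TATA box TATAAA and the E-box CAGCTG were in 0 of 9, against 6.75%, 12.4% and 13% of windows. These are matches of letters in a short window and say nothing of binding in these cells. The Dusp1 and Dusp8 matches stand in genes that followed different libraries, as described next.

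Among the inducible nuclear phosphatases, Dusp1 (ENSMUSG00000024190, GRCm38 chromosome 17, 26505590 to 26562128), whose product acts on p38, JNK and ERK, measured 47.8, 39.7 and 44.6 CPM in corticosterone replicates 1 to 3 and 37.3, 51.6 and 37.9 CPM in vehicle replicates 1 to 3. Vehicle replicate 2 was thus the highest library and the labels overlapped. The log2 difference by label was 0.06 ± 0.14 (SE, edgeR adjusted p = 0.885), with a 95% interval from -0.27 to 0.39. With both libraries numbered 2 left out it was 0.30 (adjusted p = 0.724). Leaving out corticosterone replicate 1 turned it to -0.0062, vehicle replicate 1 to -0.032 and vehicle replicate 3 to -0.024, so the labels gave it no stable direction.

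Read in the other order, Dusp1 was the only member without overlap: 47.8, 44.6 and 51.6 CPM in the libraries with higher Fkbp5 against 39.7, 37.3 and 37.9 CPM in those with lower Fkbp5. The gap between the sets, from 39.7 to 44.6 CPM, was small beside that of Fkbp5, from 36.9 to 135 CPM. The 1 member of 10 compares with 9.63% of all genes without overlap in this order, with 4.89% higher and 4.74% lower. The count is thus near the background. Of the genes of at least 5 CPM, the 3 whose values followed Dusp1 most closely over the 6 libraries were Zfp281, Tns2 and Myl9. Their log2 CPM, centred on each gene's mean, differed from that of Dusp1 by 0.049, 0.049 and 0.051 on average. The median over 10639 genes was 0.19. These genes were picked as the nearest, so their place below that median was fixed by the choice.

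Dusp2 (ENSMUSG00000027368, chromosome 2, 127336159 to 127338376), an inducible phosphatase best known from activated lymphocytes, was the least abundant member. The corticosterone replicates gave 4.01, 4.45 and 6.28 CPM, from 115, 130 and 160 reads, and the vehicle replicates 1.87, 2.93 and 2.67 CPM, from 48, 85 and 64 reads. Every library labelled corticosterone was above every library labelled vehicle. The means were 4.91 ± 1.20 and 2.49 ± 0.55 CPM (SD, n = 3 each), 1.97-fold apart, a log2 difference of 0.98 ± 0.25 (SE) with an interval from 0.38 to 1.57. The interval does not cross 0, but over all genes the adjusted p was 0.364 by edgeR and 0.069 by DESeq2. With 1 library left out the difference ran from 0.76 to 1.11, and without both libraries numbered 2 it was 1.18 (adjusted p = 0.723). The summed markers of proliferating myoblasts also did not overlap between the labels, in the opposite direction, and their part in the difference was not tested. In bulk RNA, fewer cells that express a gene and less RNA of it per cell cannot be told apart. The widest range of the 10 members, 3.35-fold between libraries, was that of Dusp2. Among the genes closest to it over the 6 libraries were Adgrg2 and Ddias, each differing by 0.14 log2 units on average. The median over 10640 genes was 0.48, and a place below it was again fixed by picking the nearest.

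Dusp4 (ENSMUSG00000031530, chromosome 8, 34807297 to 34819894), a nuclear phosphatase of ERK and JNK, measured 38.9, 42.1 and 31.7 CPM against 50.4, 37.6 and 38.3 CPM. Vehicle replicate 1 was high and corticosterone replicate 3 low, and the remaining 4 lay close together. Its difference by label was -0.16 ± 0.15 (adjusted p = 0.666). It was -0.022 without vehicle replicate 1, -0.055 without corticosterone replicate 3, -0.25 without corticosterone replicate 2 and -0.33 with both libraries numbered 2 left out. Dusp5 (ENSMUSG00000034765, chromosome 19, 53529109 to 53542431), specific for ERK, measured 14.9, 11.0 and 11.1 CPM against 10.8, 11.99 and 11.5 CPM. Corticosterone replicate 1 alone stood above the rest, and the difference of 0.11 ± 0.15 (adjusted p = 0.773) became -0.048 without it. An antisense gene overlaps 547 of the 2473 exon bases of Dusp5, and without strand its reads cannot be told apart. The overlap with neighbouring genes is 11 of 3311 exon bases for Dusp1 and 66 of 4870 for Dusp8, and the other 7 members have none.

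Of the cytoplasmic ERK phosphatases, Dusp6 (ENSMUSG00000019960, chromosome 10, 99263231 to 99267489), whose transcription is a standard readout of ERK activity, measured 49.1, 35.8 and 32.7 CPM in the corticosterone replicates and 45.6, 46.6 and 46.8 CPM in the vehicle replicates. The vehicle libraries were nearly equal, corticosterone replicates 2 and 3 lay below them and corticosterone replicate 1 was the highest of all. The means were 39.2 ± 8.68 and 46.3 ± 0.63 CPM (SD, n = 3 each), a log2 difference of -0.24 ± 0.15 (adjusted p = 0.535) with an interval from -0.58 to 0.10. Without corticosterone replicate 1 the difference was -0.44 (adjusted p = 0.113), and without corticosterone replicate 3 it was -0.13 (adjusted p = 0.817). Dusp7 (ENSMUSG00000053716, chromosome 9, 106368632 to 106375724), the closest relative of Dusp6 among the members, varied less, at 26.0, 26.6 and 20.8 CPM against 25.5, 23.1 and 24.5 CPM. Its difference was 0.0071 ± 0.11 (adjusted p = 0.984), and the interval from -0.26 to 0.27 bounds the size of a difference by label.

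Of the JNK and p38 phosphatases, Dusp8 (ENSMUSG00000037887, chromosome 7, 142079490 to 142095843) measured 28.3, 18.7 and 17.7 CPM in the corticosterone replicates and 32.8, 31.7 and 31.4 CPM in the vehicle replicates. The vehicle libraries lay close together and above all 3 labelled corticosterone, of which replicate 1 was nearest. The means were 21.6 ± 5.83 and 32.0 ± 0.78 CPM (SD, n = 3 each), a log2 difference of -0.57 ± 0.17 (SE) with an interval from -0.97 to -0.16. The adjusted p was 0.364 by edgeR and 0.13 by DESeq2. Without corticosterone replicate 1 Dusp8 fell by 0.81 on the log2 scale and passed (edgeR adjusted p = 0.0429), as 1 of 29 calls among the 14607 genes of that fit. That fit sets a near pair of libraries, corticosterone replicates 2 and 3, against the 3 labelled vehicle, so pair and label cannot be told apart in it. Without both libraries numbered 2 the difference was -0.48 (adjusted p = 0.769), and markers of proliferating myoblasts were also lower by label, whose part was not tested.

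Dusp10 (ENSMUSG00000039384, chromosome 1, 184013302 to 184075636), a p38 and JNK phosphatase with a known role in muscle regeneration in mice, measured 72.2, 64.1 and 61.7 CPM against 63.6, 66.0 and 77.8 CPM. The 2 highest libraries carried different labels, and the difference was -0.07 ± 0.10 (adjusted p = 0.808; interval -0.31 to 0.17). Dusp16 (ENSMUSG00000030203, chromosome 6, 134715468 to 134792625), a JNK phosphatase, measured 41.9, 30.9 and 32.0 CPM against 38.6, 42.4 and 39.3 CPM. Corticosterone replicates 2 and 3 were the lowest libraries, as for Dusp6 and Dusp8, and corticosterone replicate 1 lay among the vehicle libraries. Its difference was -0.20 ± 0.13 (adjusted p = 0.55) with all libraries. It was -0.35 (adjusted p = 0.153) without corticosterone replicate 1, -0.12 (adjusted p = 0.78) without corticosterone replicate 2 and -0.076 (adjusted p = 0.964) with both libraries numbered 2 left out. The atypical Dusp14 (ENSMUSG00000018648, chromosome 11, 84048041 to 84069261) was the steadiest member, at 22.6, 18.7 and 21.6 CPM against 20.4, 21.7 and 22.1 CPM, a 1.21-fold range. It differed by -0.030 ± 0.10 (adjusted p = 0.917; interval -0.27 to 0.21).

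**Figure D2:**
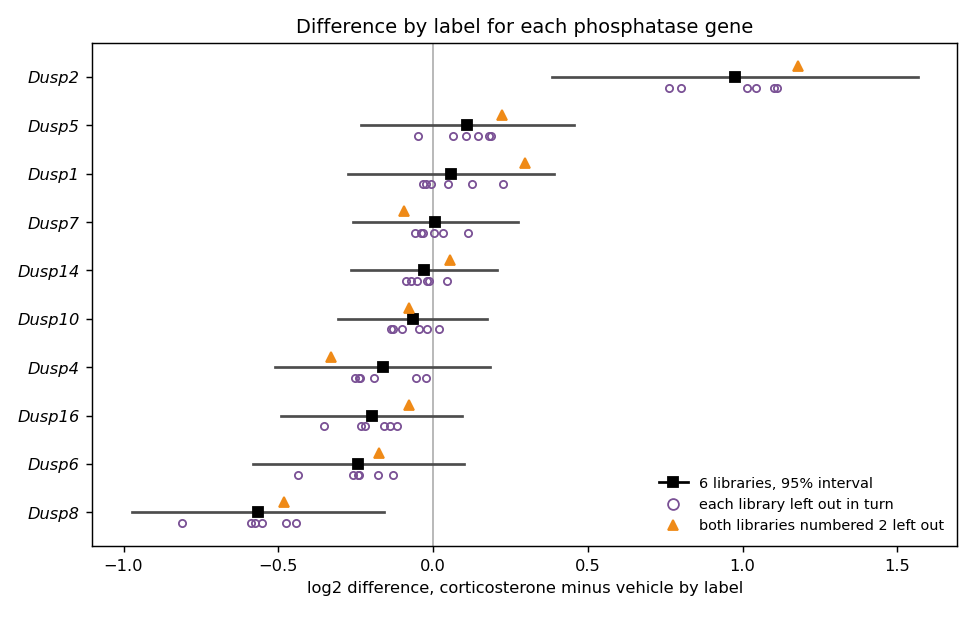
Log2 difference of each phosphatase gene by label (horizontal axis, corticosterone minus vehicle): squares with 95% intervals from all 6 libraries, open circles with each library left out in turn, triangles with both libraries numbered 2 left out. Only the intervals of Dusp2 (0.38 to 1.57) and Dusp8 (-0.97 to -0.16) lie on 1 side of 0, and neither gene passed after adjustment over all genes.

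Against its own mean log2 CPM over the 6 libraries, 9 of 10 members were above in corticosterone replicate 1, 3 in each of corticosterone replicates 2 and 3, and 5, 6 and 6 in vehicle replicates 1 to 3. The median of these deviations over the members was 0.14, -0.10 and -0.17 in corticosterone replicates 1 to 3, where the median over all genes tested was 0.0018, 0.011 and 0.0094. In the vehicle replicates the members' median lay between 0.00031 and 0.038, and that over all genes tested between 0.0025 and 0.0042. The share of all genes above their own mean in each library was not computed. The members thus stood mostly high in 1 library labelled corticosterone and mostly low in the other two. Over the log2 CPM of all genes tested, the 6 libraries formed 3 near pairs: corticosterone replicate 1 with vehicle replicate 3, corticosterone replicate 3 with corticosterone replicate 2, and vehicle replicate 2 with vehicle replicate 1. The root mean square difference was 0.36, 0.40 and 0.36 log2 units within them and 0.45 to 0.56 between all other libraries, and in each pair the first named library had the higher Fkbp5. Both libraries labelled corticosterone replicates 2 and 3 lay below the other 4 for Dusp6, Dusp8 and Dusp16, 3 of 10 members where 13.4% of all genes did so. They lay above the other 4 for Dusp2 alone, where 13.3% of all genes did. This count was made after the values were seen, and the pairs come from the same libraries. Dusp6, Dusp8 and Dusp16 thus had their lowest values in the same near pair, which holds both a library with higher and one with lower Fkbp5.

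Within the pairs, 6 members had the same direction in all 3, where 40.5% of all genes did: 5 were higher in the library with the higher Fkbp5 (20.0% of all genes) and 1 was lower (20.5%). The higher ones were Dusp1, Dusp2, Dusp5, Dusp14 and Dusp16. Dusp1 was higher by 0.34, 0.17 and 0.47 log2 units in the pairs in the order given above, and Dusp2 by 0.59, 0.50 and 0.64. The least of the differences was 0.016 for Dusp5, 0.032 for Dusp14 and 0.046 for Dusp16. Dusp8 was lower by little, with differences of -0.15, -0.081 and -0.053. The other 4 members had mixed directions, at 0.023, -0.41 and -0.42 for Dusp4, 0.068, -0.13 and 0.031 for Dusp6, 0.086, -0.36 and -0.14 for Dusp7, and -0.11, -0.056 and 0.053 for Dusp10. Dusp1, Dusp2 and Dusp5 stood higher both in the mean by label and within each near pair. Of these, Dusp2 was the one without overlap between the labels, and its values rested on the fewest reads. Both readings use the same libraries, and by label the directions of Dusp1 and Dusp5 turned when some single libraries were left out.

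**Figure D3:**
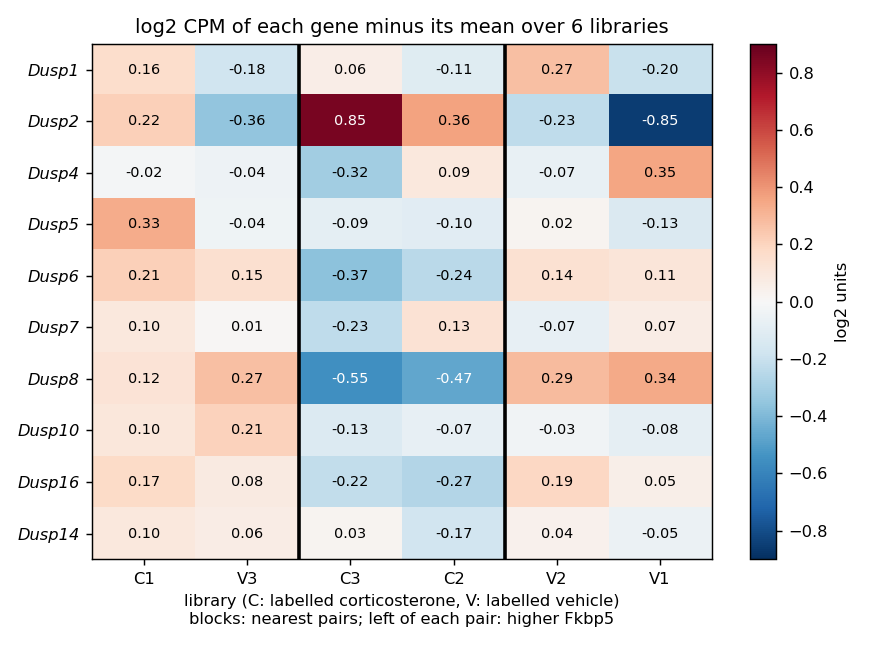
Log2 CPM of each phosphatase gene minus its own mean over the 6 libraries (colour and printed value), with libraries in columns arranged as the 3 nearest pairs and the library with higher Fkbp5 on the left of each. Dusp1 and Dusp2 are higher on the left in every pair, and Dusp6, Dusp8 and Dusp16 are lowest in C3 and C2.

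To compare levels between genes, CPM was divided by the length of each gene's exons. Dusp10 was the most abundant member at 22.2 ± 2.03 CPM per kb (SD over all 6 libraries) and did not overlap the next. Dusp4, Dusp6 and Dusp1 followed at 14.5 ± 2.26, 13.7 ± 2.16 and 13.0 ± 1.76 CPM per kb, with ranges that overlapped, and Dusp14 came next at 10.9 ± 0.73. Dusp1 was above Dusp14 in 6 of 6 libraries although their ranges overlapped. Dusp7 stood at 7.28 ± 0.65 CPM per kb, below the range of Dusp14, and was above Dusp8 in 6 of 6 libraries although those ranges overlapped. Dusp8, Dusp16 and Dusp5 overlapped at 5.50 ± 1.40, 4.81 ± 0.63 and 4.80 ± 0.62 CPM per kb. Dusp2 was lowest at 1.85 ± 0.78 CPM per kb, with no overlap with Dusp5. The JNK and p38 phosphatases thus held both the first place and places near the end, and the inducible nuclear enzymes were spread from second to last. Exons of all annotated transcripts enter the length, so a gene that uses short transcripts in these cells is placed too low.

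**Figure D4:**
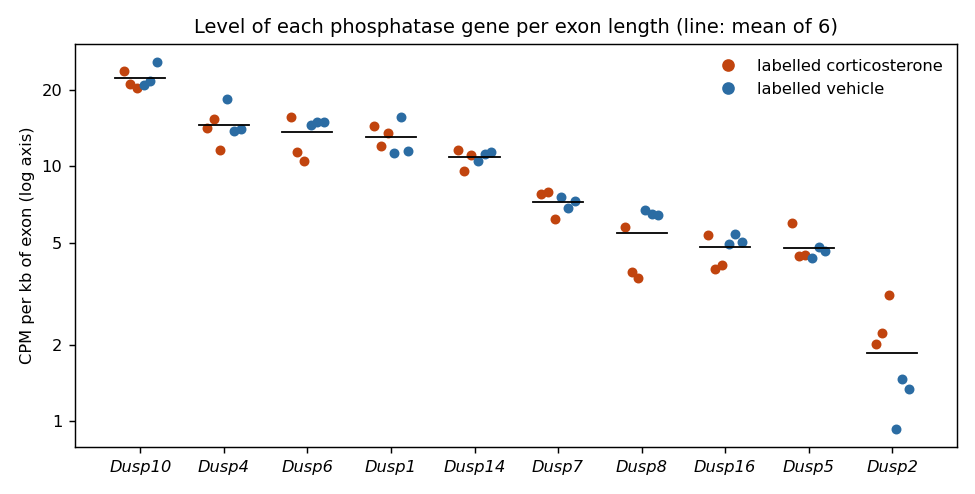
CPM per kb of exon (log axis) for each phosphatase gene in the 6 libraries, coloured by label, with the mean as a line; genes are ordered by that mean. Dusp10 lies above all others at 20.3 to 25.6 and Dusp2 below all others at 0.94 to 3.14.

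Beside these 10, the family's other members in the list of 18 dual-specificity phosphatases gave 15 tested genes, of which 0 passed, 8 lay higher and 7 lower (median log2 difference 0.038). The most abundant were the muscle gene Dusp27 at 266 ± 5.59 against 259 ± 18.3 CPM, the RNA phosphatase gene Dusp11 at 172 ± 8.89 against 148 ± 15.7 CPM, and Dusp3 at 151 ± 30.2 against 168 ± 1.92 CPM (SD, n = 3 each; edgeR adjusted p = 0.862, 0.43 and 0.666). Dusp3 had its lowest value, 127 CPM, in corticosterone replicate 2 and its highest, 185 CPM, in corticosterone replicate 1. As for Dusp6, corticosterone replicates 2 and 3 were the lowest libraries and replicate 1 the highest.

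None of the genes of the substrates and upstream kinases passed the test by label. Of 12 MAP kinase genes tested, 0 passed, 7 lay higher and 5 lower (median 0.022). The atypical kinase gene Mapk6 stood at 165 ± 18.3 against 166 ± 9.70 CPM and the ERK1 gene Mapk3 at 80.5 ± 6.96 against 85.8 ± 5.33 CPM (SD, n = 3 each; adjusted p = 0.968 and 0.677 by edgeR). Of 19 kinases above them, 0 passed, with 12 higher and 7 lower (median 0.048), from -0.46 for Map3k1 to 0.47 for Ksr1. The labels did not overlap for 4 of the 19, beside 16.6% of all genes, and 2 had an unadjusted p under 0.05, beside 11.8%. These 2, chosen, like the 2 extremes, after their values were seen, were the p38 kinase kinase gene Map2k3 with a log2 difference of 0.26 ± 0.08 and Map3k4 with -0.23 ± 0.09 (SE, edgeR adjusted p = 0.364 and 0.403). The most abundant were Map3k7, Map3k20 and Araf, with log2 differences of 0.15 ± 0.08, 0.23 ± 0.10 and 0.11 ± 0.08. Of 10 kinases that MAP kinases phosphorylate, 0 passed, with 6 higher and 4 lower (median 0.10). Mknk2, which acts on the cap-binding factor eIF4E, was the most abundant at 327 ± 74.7 against 343 ± 42.2 CPM, followed by Mapkapk2, a p38 target, and Rps6ka3, an ERK target, with differences of 0.04 ± 0.08 and 0.21 ± 0.09.

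Of 23 ERK and immediate-early target genes, 0 passed, 10 lay higher and 13 lower by label (median -0.076). At an unadjusted p under 0.05 there were 4, 2 in each direction, a share near the 11.8% of all genes. The AP-1 gene Junb stood at 465 ± 62.7 against 381 ± 19.8 CPM, Egr1, an early response transcription factor, at 186 ± 40.6 against 211 ± 43.3 CPM, and the AP-1 gene Fosl2 at 113 ± 4.96 against 137 ± 10.7 CPM (SD, n = 3 each; edgeR adjusted p = 0.398, 0.716 and 0.364). Read by the order of libraries in which Dusp1 did not overlap, 5 of the 23 did not overlap, where 9.63% of all genes did. Myc was higher, and Fosb, Egr3, Ier3 and Elk3 were lower, in the 3 libraries with higher Fkbp5; these 5 were chosen after their values were seen. Within the near pairs 9 of 23 were lower in the library with higher Fkbp5 in all 3 pairs, beside 20.5% of all genes, and 3 were higher, beside 20.0%. Egr3, for example, stood at 35.5, 34.8 and 28.9 CPM in the libraries with higher Fkbp5 and at 61.9, 46.1 and 64.5 CPM in the others.

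Of 12 other feedback inhibitors of the RAS and ERK pathway, 0 passed, with 3 higher and 9 lower (median -0.041). Pebp1, an inhibitor of RAF, stood at 263 ± 17.7 against 268 ± 1.81 CPM, and Rasa1, a RAS GTPase-activating protein, at 172 ± 19.1 against 194 ± 7.81 CPM (adjusted p = 0.911 and 0.51 by edgeR). Errfi1, a feedback inhibitor of the EGF receptor, measured 125, 56.5 and 126 CPM in the corticosterone replicates and 110, 142 and 78.7 CPM in the vehicle replicates. Its 3 highest libraries were those of Dusp1. In that order of libraries 3 of the 12 did not overlap, beside 9.63% of all genes: Errfi1 and Spry2 were higher in the libraries with higher Fkbp5, and Rasa1 was lower. Spry2 was named after its values were seen. By label the difference was -0.11 ± 0.33 for Errfi1 and 0.18 ± 0.15 for Spry2 (SE, edgeR adjusted p = 0.908 and 0.648).

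**Figure D5:**
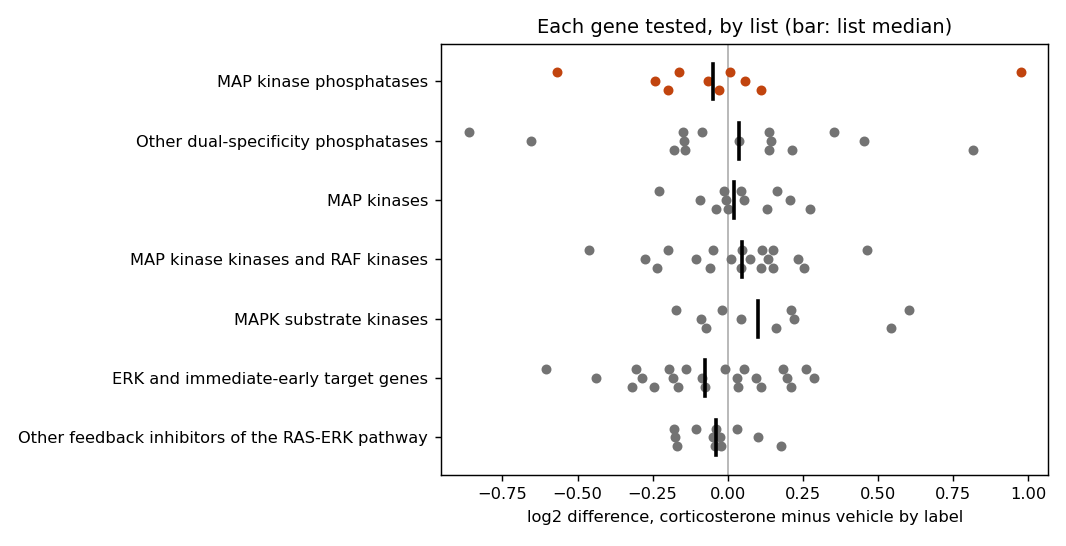
Log2 difference by label (horizontal axis, corticosterone minus vehicle) of every gene tested in the 10 phosphatases and in the lists of related genes, with each list's median as a bar. The medians run from -0.076 for ERK and immediate-early target genes to 0.10 for MAPK substrate kinases, and Dusp2 at 0.98 is the point farthest to the right.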

How the data were processed

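Gene counts in 6 libraries of poly(A) RNA from C2C12 myotubes were used as the authors deposited them, as raw read counts per gene. Per the submitters' processing notes, the tools were HISAT2 2.0.5, HTSeq 0.6.1 and DESeq2 1.24.0, and the build mm10, with roles, annotation release and strand setting not given in the sources used here. No label says that the kit marks strand. Of 46983 gene IDs, 46488 (98.9%) matched GENCODE M21 (GRCm38), which gave positions and exon lengths. Listed symbols were looked up in the table and then by GENCODE identifier; 1, Spry3, was not matched.

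Corticosterone was compared with vehicle by label with edgeR 4.0.16 (R 4.3.3), quasi-likelihood F-test, TMM scaling, filterByExpr (14450 genes kept), two-sided, Benjamini-Hochberg adjustment over all genes kept and a threshold of 0.05. The SE is the log2 difference divided by the square root of F. Log2 CPM used a prior count of 2. Alternatives were DESeq2 1.42.0, limma-voom (limma 3.58.1), other scalings and count filters, the replicate number as a block, and libraries left out. Counts were simulated for these 14450 genes in this comparison. In them edgeR found 12.9% of 70 genes changed 1.5-fold, 77.1% of 70 changed 2-fold and 96.7% of 60 changed 4-fold. It made 9 false calls, and DESeq2 made 35. The simulated libraries were independent and rightly labelled, without the near pairs, and the changed genes were drawn above a minimum mean count. These shares therefore need not hold for the measured libraries.

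Named were all 10 members, the 3 genes with the highest mean CPM of each list, Fkbp5, Tsc22d3 and Per1, and the 3 genes nearest to Dusp1 and to the member of widest range. A few genes that this rule names are not reported here. The members and lists were chosen with earlier results of these data known. Floors and read counts cover counting error only.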

Additional observations from a re-analysis of the deposited data

How the results depend on the processing

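Over all 14450 genes the 0 calls by edgeR became 138 with DESeq2 (68 higher, 70 lower). The filter keeps other genes when libraries are left out: calls were 3 of 14403 genes with both libraries numbered 2 left out, and ran from 0 to 29 with 1 library left out, highest without corticosterone replicate 1 (29 of 14607) and vehicle replicate 3 (11 of 14793). Members called ran from 0 to 1 with 1 library left out, the 1 being Dusp8 without corticosterone replicate 1, and stayed at 0 in the other alternatives. Genes called in the related lists stayed at 0 throughout. With library totals in place of TMM, 2 members, Dusp1 and Dusp4, did not overlap in the order of libraries by Fkbp5, in place of 1. The share of all genes without overlap was computed with TMM scaling and the main filter only. It was 9.63% in this order and 16.6% between the labels. Counts under other scalings and filters therefore have no such share beside them. Members without overlap between the labels stayed at 2 under other scalings and filters. Without both libraries numbered 2, an alternative added after the values were seen, they were 3 (2 higher, 1 lower), where 37.1% of all genes did not overlap.

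The directions of Dusp2, Dusp4, Dusp6, Dusp8 and Dusp16 were the same in all 15 alternatives, though sizes moved: from -0.33 to -0.022 for Dusp4, -0.44 to -0.13 for Dusp6 and -0.35 to -0.076 for Dusp16. Dusp7 turned to -0.095 with both libraries numbered 2 left out, -0.00028 with the replicate block, -0.042 with library totals and -0.011 with upper quartile scaling. With 1 library left out it ran from -0.058 to 0.11. Dusp14 turned to 0.055 with both libraries numbered 2 left out. With 1 library left out, Dusp1 ran from -0.032 to 0.23, Dusp5 from -0.048 to 0.19, Dusp10 from -0.14 to 0.018 and Dusp14 from -0.089 to 0.046. The cause of these turns was not tested.

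The replicate block called 0 genes and 0 members. Same-numbered libraries deviated from their label means with correlations of -0.15, -0.27 and -0.32 over genes. Of the libraries labelled corticosterone, 0 of 3 correlated best with its own number, so no pairing by number was seen. The label means include both libraries numbered 2, whose glucocorticoid-induced genes contradicted the label. This check therefore cannot decide whether the numbers pair the libraries. Where leaving out 1 library leaves 2 in a label, the spread is pooled over both labels. Depth limited Dusp2 most, at 48 to 160 reads per library.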

Other observations

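Dusp9, the cytoplasmic ERK phosphatase outside the 10 members, measured 1.78, 0.96 and 1.14 CPM in the corticosterone replicates and 1.95, 1.55 and 2.63 CPM in the vehicle replicates. Dusp15 and Dusp26 were under the count filter, with at most 3 reads in a library. Dusp12, chosen after its values were seen, stood at 3.25, 2.74 and 3.02 CPM against 6.52, 6.17 and 3.67 CPM. It did not overlap between the labels (edgeR adjusted p = 0.364), and vehicle replicate 3 lay nearer to the libraries labelled corticosterone than to the other libraries labelled vehicle.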
